A study of Sus scrofa with 3 samples.

Results

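The genes of cholesterol efflux and lipoprotein remodelling were followed in the visceral adipose tissue (VAT) of miniature pigs. The members were 10 mRNA genes chosen by name for their roles, *ABCA1*, *ABCG1*, *APOE*, *NR1H3*, *NR1H2*, *SCARB1*, *PLTP*, *LCAT*, *NPC1* and *NPC2*, and all 10 were among the 22826 mRNA genes with deposited values. Of these, 9 were above 0 in every library, and *LCAT* was listed at 0 in all of them. Their main feature in these data was *APOE*, which was 1.76-fold higher in the library of castrated pigs than in that of intact pigs. It was 2.16-fold higher there than in the library of testosterone-treated castrated pigs. Hepatocyte markers were also higher in the castrated library, and their part in this was not tested. The exporter *ABCA1* was lowest in the castrated library, as were *SCARB1* and *PLTP*, but each differed by less than 1.5-fold between any pair of libraries. *ABCG1* was 1.51-fold higher in the testosterone-treated than in the intact library, and the remaining members above 0 differed by less than 1.5-fold. Each group was 1 pooled library, so no difference could be tested.

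Cells cannot break down the sterol ring, so surplus cholesterol has to leave the cell. Cholesterol taken up with lipoproteins is released in the lysosome and carried out of it by NPC2 and NPC1, and oxysterols formed from surplus cholesterol activate the liver X receptors (LXRs), which switch on genes of export. The ABC transporters then pass cholesterol to apolipoproteins and high-density lipoprotein (HDL), where LCAT esterifies it and PLTP moves phospholipid between particles. Adipose tissue is a large store of unesterified cholesterol, held mostly on the lipid droplets of adipocytes, and its macrophages are a further site of efflux.

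The study asked how loss and replacement of testosterone act on VAT under a diet rich in fat and cholesterol (HFC). All animals were male Chinese Wuzhishan miniature pigs, 6 to 7 months old when obtained. After a pretreatment period of several weeks on a standard diet, they were divided into groups and fed the HFC diet for 12 weeks. The VAT was retroperitoneal fat. Intact male pigs (IM) had skin incisions only, castrated male pigs (CM) were not given testosterone, and castrated pigs with testosterone replacement (CMT) were given testosterone propionate at 10 mg/kg each week. RNA of the pigs of a group was mixed in equal amounts, 4 to 6 pigs per group by the labels and 4 by the methods, and 1 library per group was sequenced on an Ion Proton instrument.

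With 1 pooled library per group there was no replicate, so a difference between libraries could not be tested and cannot be told apart from a difference between pools. Levels are in UQRPKM, reads per kilobase of gene divided by a library's upper quartile of gene counts, which allows levels of genes of different length to be compared. Numbers of reads were recovered from these values, between 13449107 and 14844063 on mRNA genes per library. Intervals are exact 95% Clopper-Pearson intervals from these reads and cover counting error only. A ratio of at least 1.5-fold is called past the threshold where neither library was below 1 UQRPKM. In bulk tissue, fewer cells of a type and less RNA per cell cannot be told apart.

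Adipocyte markers were abundant, with the adipokine gene *ADIPOQ* at 74928, 69193 and 63873 UQRPKM in IM, CM and CMT, although *CIDEA* was listed at 0. The 9 adipocyte markers matched summed to 136039, 127868 and 109973 UQRPKM, and 7 of the 8 compared were lower in CMT than in CM (median log2 ratio -0.33), with the lipid droplet gene *PLIN1* at -0.57 (-0.59 to -0.56). The libraries also differed in genes of other tissues. The 23 hepatocyte markers summed to 77.1, 10850.1 and 69.1 UQRPKM in IM, CM and CMT, and the 20 skeletal muscle markers to 195, 162 and 8160 UQRPKM. Hepatocyte transcripts thus stood out in CM and muscle transcripts in CMT. The 8 adrenal cortex markers summed to 379, 658 and 399.6 UQRPKM, most of it *HSD3B1*, while *CYP11A1*, *CYP17A1* and *NR5A1* were listed at 0. The 11 endothelial markers summed to 11395, 9818 and 10383 UQRPKM.

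Per length of gene, the levels of the members kept 1 order in all libraries. *APOE* came first, followed by *NPC2*, *SCARB1*, *NR1H3*, *NR1H2*, *PLTP*, *ABCA1*, *NPC1* and *ABCG1*, and the counting intervals of neighbours in this order did not overlap in any library. In IM, *APOE* had a higher level than 99.6% of the mRNA genes above 0, *NPC2* than 97.9%, *ABCA1* than 75.7% and *ABCG1* than 28.1%. *APOE* made up 66.7%, 80.0% and 65.1% of the summed UQRPKM of the members in IM, CM and CMT, and the other members together came to 6976, 6119.5 and 6089.7 UQRPKM. The pool of efflux transcripts was therefore mostly *APOE* by level, and the excess in CM lay in *APOE*.

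**Figure D1:**
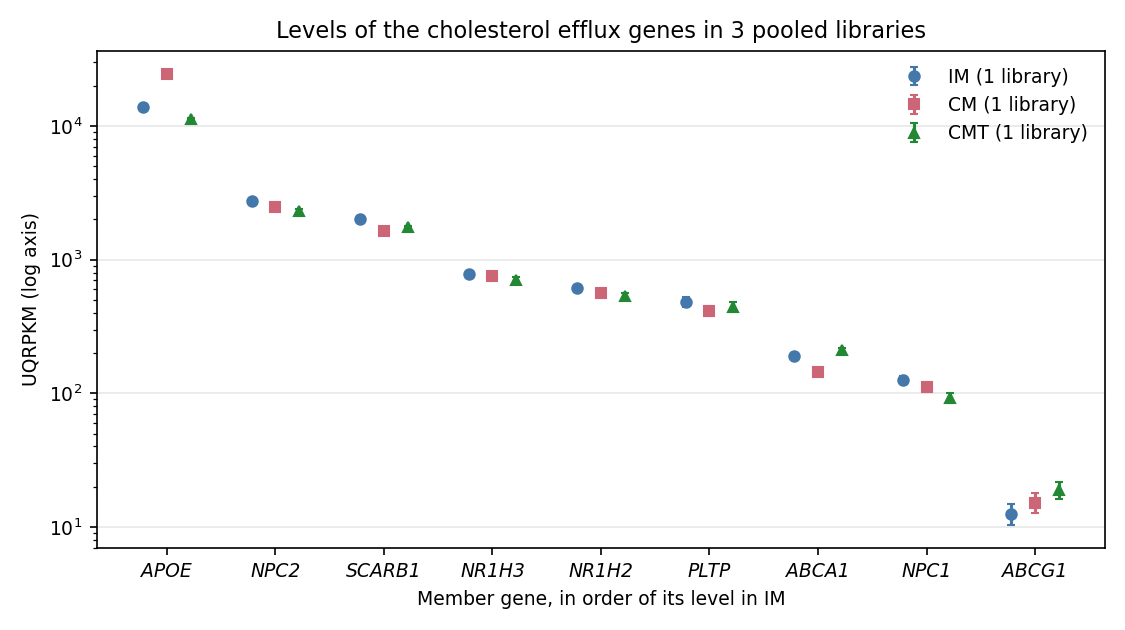
UQRPKM of the 9 members above 0 (log axis) in the IM, CM and CMT libraries, 1 pooled library each, with bars for the 95% counting interval. *APOE* lies highest throughout and *ABCG1* lowest, and the CM point of *APOE* (24527 UQRPKM) lies above its IM and CMT points.

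*APOE* encodes apolipoprotein E, which accepts cholesterol from the exporters and carries lipoproteins to receptors on cells. Its level was 13949.8, 24527 and 11363 UQRPKM in IM, CM and CMT, with 22843, 38277 and 18233 reads behind them. The CM library was high and the other two were closer to each other. On the log2 scale *APOE* was 0.81 higher in CM than in IM (95% interval 0.79 to 0.84), -1.11 in CMT against CM (-1.14 to -1.08) and -0.30 in CMT against IM (-0.32 to -0.27). The ratio of CM to IM exceeded that of 94.9% of the mRNA genes compared, and only 3.64% had a lower ratio of CMT to CM.

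Few genes had this pattern. Among 10046 mRNA genes with at least 50 reads in every library, 111 genes (1.10%) exceeded both IM and CMT by 1.5-fold or more in the CM library. This pattern was taken from *APOE* itself. In IM, CM and CMT, 69, 32 and 96 mRNA genes lay above *APOE*. With so few above it in CM, it says little that 0 of the 111 did. *APOE* took 0.154%, 0.282% and 0.136% of the mRNA reads.

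Some markers of other cells were higher in CM together with *APOE*. All 11 endothelial markers compared were lower in CM than in IM, 9 of them with an interval that excluded 0. Of 11 skeletal muscle markers compared, 10 were lower, but the interval excluded 0 for only 1. Over all mRNA genes compared, 43.2% were higher in CM than in IM. All 11 hepatocyte markers that could be compared between CM and IM were past the threshold and higher in CM, and *ALB*, the gene for albumin, had 10, 10612 and 15 reads in IM, CM and CMT. The excess of *APOE* in CM over IM was 10577.6 UQRPKM, while that of the 23 hepatocyte markers summed to 10773 UQRPKM and reached at most 2907.5 UQRPKM for 1 gene. Of 19 macrophage markers compared, 6 were past the threshold above IM in the CM library and 0 below, at a median log2 ratio of 0.22, where 8.38% of all mRNA genes compared were past it and higher and 10.4% lower. In CMT against CM, 7 were past it and lower and 0 higher, at a median of -0.21, where 9.97% of all genes were lower and 9.53% higher. Of 4 adrenal cortex markers compared, 2 were past it and higher in CM than in IM, among them *HSD3B1*, a steroid dehydrogenase gene, at 336, 592 and 369 UQRPKM in IM, CM and CMT and a log2 ratio of 0.82 (0.69 to 0.94). The other was *SULT2A1*, a sulfotransferase gene, with 20, 54 and 1 reads. The remaining markers compared were *STAR*, at -0.16 (-0.58 to 0.27) in CM against IM, and *MC2R*, at 0.14 (-0.84 to 1.13). *CYP11A1*, *CYP17A1* and *NR5A1* were listed at 0 in every library.

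The summed level of the 21 macrophage markers matched was nevertheless not highest in CM, at 11089, 10210 and 9402 UQRPKM in IM, CM and CMT. Both *CD163* and *GPNMB* were listed at 0, *LOC100520753* (*CD68*) had 38, 90 and 48 reads, and *EMR1* had 204, 399 and 134 reads. The abundant complement gene *C1QA* was lower in CM than in IM, at a log2 ratio of -0.43 (-0.51 to -0.36). Whether the differences in these hepatocyte and macrophage markers, or in *HSD3B1* and *SULT2A1*, bear on the level of *APOE* was not tested.

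**Figure D2:**
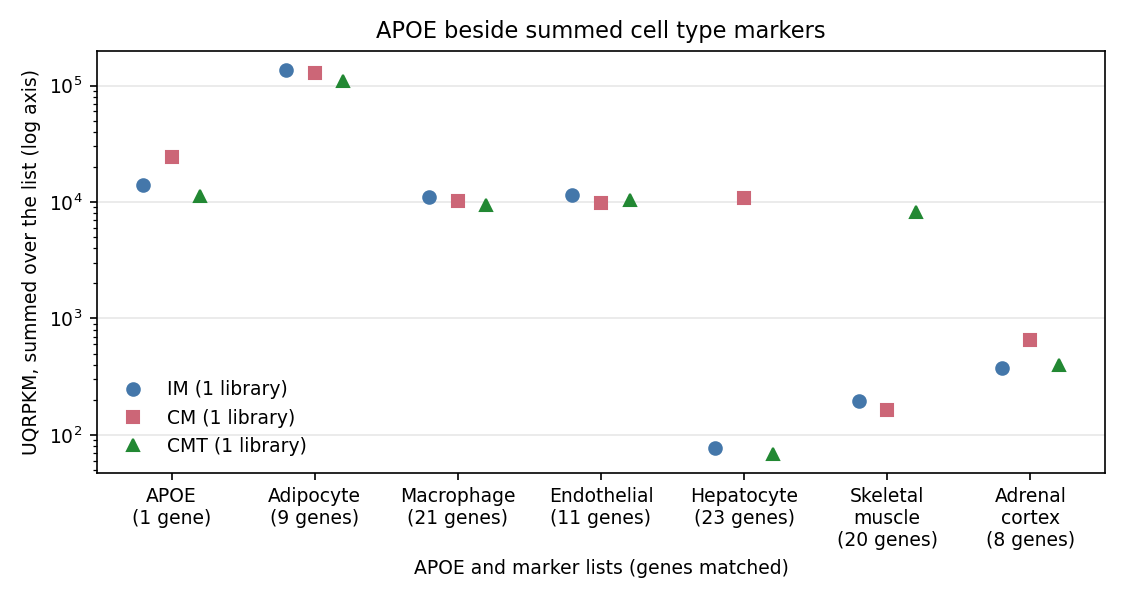
*APOE* and the summed UQRPKM of 6 lists of cell type markers (log axis), 1 point per pooled library. Hepatocyte markers stand out in CM (10850.1 UQRPKM) and skeletal muscle markers in CMT (8160 UQRPKM). The macrophage sum, led by *C1QC* and *C1QA*, is 10210 UQRPKM in CM and 11089 in IM.

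The genes next to *APOE* in the RefSeq gene order of the pig (Sscrofa11.1) did not all share its pattern. *TOMM40*, for a mitochondrial import channel, had a log2 ratio of -0.30 in CM against IM (-0.43 to -0.16), and *CLPTM1* one of -0.10 (-0.16 to -0.04). The apolipoprotein genes *APOC4* and *APOC2* of the same cluster had 0, 73 and 1 reads and 2, 281 and 0 reads in IM, CM and CMT. Reads of these apolipoprotein genes were therefore nearly confined to CM, unlike those of *APOE*, which were numerous in every library.

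By the pair of log2 ratios of CM and CMT to IM, the 5 genes most like *APOE* among 10045 were *ALOX5*, *LOC100515857*, *CNTD2*, *ATP5J2* and *SMPDL3A*, at distances of 0.095 to 0.114 log2 units over the 3 libraries. *ALOX5*, for the lipoxygenase that starts leukotriene synthesis, had 45.8, 75.5 and 37.8 UQRPKM in IM, CM and CMT. All 5 were far below *APOE* in level, the highest being *ATP5J2* with 1177, 1957 and 1010.5 UQRPKM.

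*ABCA1* encodes the transporter that loads cholesterol and phospholipid onto lipid-poor apolipoprotein A-I. Its level was 191 UQRPKM in the IM library, 146 in CM and 209.7 in CMT (1753, 1271 and 1882 reads). CM was thus low and CMT high, the reverse of *APOE*. The log2 ratio was -0.39 in CM against IM (-0.50 to -0.29), 0.53 in CMT against CM (0.42 to 0.63, a ratio of 1.44) and 0.13 in CMT against IM (0.04 to 0.23). None of these reached the threshold, and 18.6% of the mRNA genes had a lower ratio of CM to IM.

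*ABCG1* encodes the transporter that passes cholesterol to mature HDL. It was the lowest member above 0, at 12.5, 15.2 and 18.8 UQRPKM in IM, CM and CMT (117, 136 and 173 reads). The values were in the order IM, CM, CMT, and neighbours in that order lay within each other's counting error: the log2 ratio was 0.29 in CM against IM (-0.08 to 0.66) and 0.31 in CMT against CM (-0.03 to 0.64). CMT against IM gave 0.59 (0.25 to 0.94), at the edge of the threshold, and adding 1 UQRPKM to both values took it below.

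The exporters did not keep a fixed proportion. *ABCA1* exceeded *ABCG1* 15.4-fold in the intact (12.7 to 18.7), 9.58-fold in the castrated (8.03 to 11.5) and 11.2-fold in the treated library (9.54 to 13.1). The interval for IM did not overlap that for CM. Set against its exporter, *APOE* exceeded *ABCA1* 72.9-fold, 168-fold and 54.2-fold in IM, CM and CMT, with intervals that did not overlap between any pair of libraries.

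*NR1H3* and *NR1H2* encode LXRα and LXRβ. *NR1H3* was at 783, 750.4 and 709.6 UQRPKM and *NR1H2* at 618, 558 and 538 UQRPKM in IM, CM and CMT. Both were highest in IM and lowest in CMT, with small steps. The log2 ratio in CM against IM was -0.06 for *NR1H3* (-0.15 to 0.03) and -0.15 for *NR1H2* (-0.24 to -0.05), and in CMT against IM it was -0.14 (-0.24 to -0.05) and -0.20 (-0.30 to -0.10). With scaling by total mRNA reads the latter became -0.03 and -0.09, and both intervals held 0. Scaling by the median gene ratio turned the sign of *NR1H3* in CM against IM, and scaling by total reads that of *NR1H2* in CMT against CM. The receptors stayed in proportion, *NR1H3* exceeding *NR1H2* 1.27-fold, 1.34-fold and 1.32-fold in IM, CM and CMT with overlapping intervals.

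*SCARB1* encodes the HDL receptor SR-BI, which moves cholesterol esters from HDL into cells and lets free cholesterol pass either way. It was at 2024, 1636 and 1754 UQRPKM in IM, CM and CMT (7197, 5546 and 6114 reads). CM was the lowest library, as for *ABCA1*, but the span was smaller. The log2 ratio was -0.31 in CM against IM (-0.36 to -0.26), 0.10 in CMT against CM (0.05 to 0.15) and -0.21 in CMT against IM (-0.26 to -0.16).

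*PLTP* encodes phospholipid transfer protein, which remodels HDL. Its level was 481, 412 and 444 UQRPKM in IM, CM and CMT, with a log2 ratio of -0.22 in CM against IM (-0.40 to -0.04), 0.11 in CMT against CM (-0.07 to 0.29) and -0.11 in CMT against IM (-0.29 to 0.06). The last sign turned when libraries were scaled by total reads without the hepatocyte and muscle markers. *LCAT*, for the plasma enzyme that esterifies the cholesterol of HDL, was listed at 0 in IM, CM and CMT. Such a value need not mean absence, since 26.2% of the mRNA genes were listed at 0 throughout, among them *HNRNPC*, for an RNA-binding protein that every cell uses, and the sterol regulator *SREBF2*.

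*NPC1* encodes the lysosomal membrane protein and *NPC2* the soluble lysosomal protein that together release cholesterol from the lysosome. *NPC1* was at 126, 111 and 92.5 UQRPKM and *NPC2* at 2740.4, 2490.3 and 2322 UQRPKM in IM, CM and CMT. Both had the order IM, CM, CMT from high to low. *NPC1* had a log2 ratio of -0.18 in CM against IM (-0.33 to -0.03), -0.27 in CMT against CM (-0.43 to -0.10) and -0.45 in CMT against IM (-0.60 to -0.29), the last being the largest difference below 0 of any member in that comparison. *NPC2* had -0.14 (-0.20 to -0.08), -0.10 (-0.16 to -0.04) and -0.24 (-0.30 to -0.18). *NPC2* exceeded *NPC1* 21.7-fold, 22.4-fold and 25.1-fold in IM, CM and CMT.

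**Figure D3:**
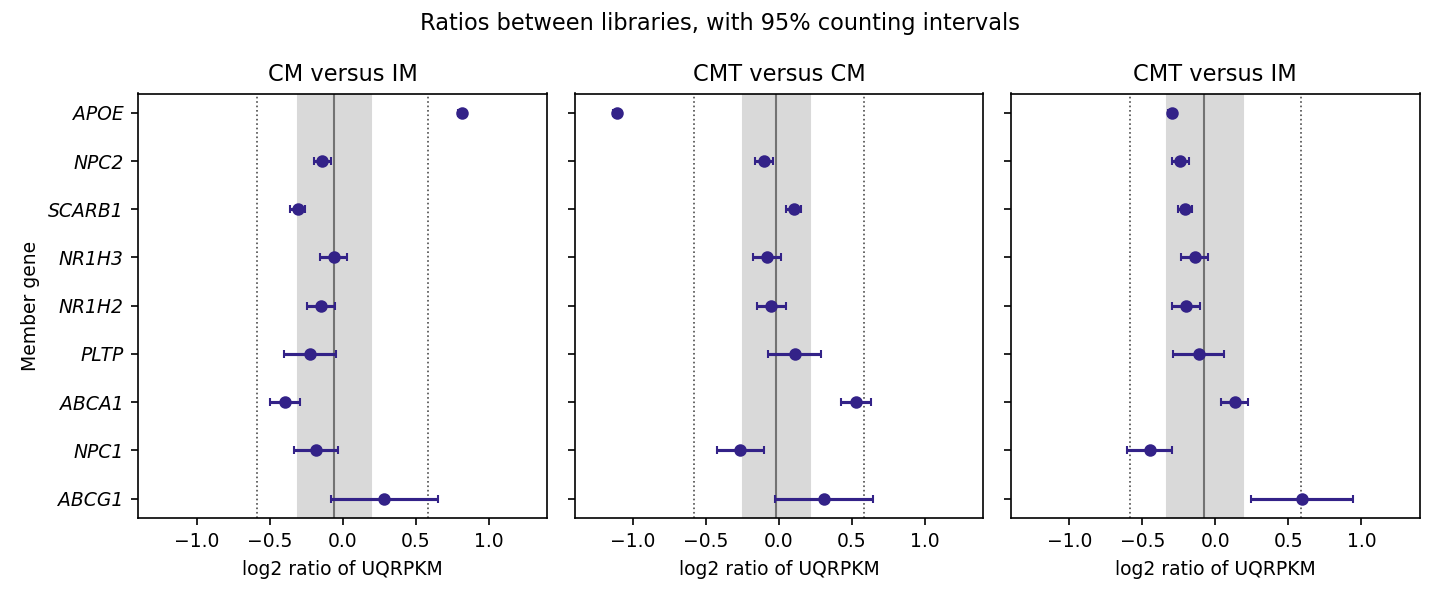
Log2 ratio of UQRPKM for each member in the 3 comparisons between libraries, with bars for the 95% counting interval. *APOE* lies at 0.81 for CM over IM and at -1.11 for CMT over CM, *ABCA1* at -0.39 and 0.53, and the other members lie closer to 0 in both.

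Counted together in CM versus IM, 1 of 9 members was past the threshold and higher (*APOE*) and 0 were lower, where 8.38% of 14123 mRNA genes were past it and higher and 10.4% lower. The counting interval excluded 0 for 7 members, 1 higher and 6 lower, against 42.3% of all genes. Scaling by total mRNA reads left 4 of them. The members had more reads than most genes, a median of 3587 over the pair of libraries against 417, and among genes with at least that many reads the interval excluded 0 for 80.8%. The median log2 ratio was -0.15 for the members and -0.06 for all genes.

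In CMT versus CM, 0 members were past the threshold and higher and 1 was lower (*APOE*), where 9.53% of 14098 genes were higher and 9.97% lower. The interval excluded 0 for 5 members, 2 higher (*ABCA1* and *SCARB1*) and 3 lower (*APOE*, *NPC1* and *NPC2*), against 38.4% of all genes and 72.3% of those with at least as many reads as the median member. Their median was -0.05, against -0.02 for all genes. Scaling by total mRNA reads also gave 5 members with an interval that excluded 0, but not the same 5. The interval of *NPC2*, at -0.05, then held 0, and that of *ABCG1*, at 0.36, excluded it. This comparison shares the CM library with the preceding one, so a high or low value of CM appears in both with opposite sign.

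In CMT versus IM, which does not use the CM library, 1 member was past the threshold and higher (*ABCG1*) and 0 were lower, where 8.81% of 14151 genes were higher and 11.9% lower. The interval excluded 0 for 8 members, 2 higher (*ABCA1* and *ABCG1*) and 6 lower, against 44.5% of all genes and 84.4% of those with as many reads. Scaling by total mRNA reads left 6 of them. The median was -0.20, against -0.08 for all genes. Among genes with at least as many reads as the median member, 4.29%, 6.12% and 7.28% were past the threshold in either direction for CM over IM, CMT over CM and CMT over IM, beside 1 of 9 members each time.

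Among 14 other LXR partners and targets matched, 11 could be compared in CM versus IM, of which 1 was past the threshold and higher and 0 lower (median -0.15). The one was *APOC2*, an activator of lipoprotein lipase, at a log2 ratio of 7.20 (5.34 to 10.3) from 2 reads in IM. In CMT versus CM, 0 of 10 were higher and 1 lower (median 0.11). In CMT versus IM, 1 of 10 was higher and 2 lower (median -0.19).

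These LXR targets did not move as 1 group. *MYLIP*, for a ubiquitin ligase, was at 214, 237 and 337 UQRPKM in IM, CM and CMT, a log2 ratio of 0.51 in CMT against CM (0.39 to 0.62) and 0.66 in CMT against IM (0.54 to 0.78). *LPCAT3*, which builds polyunsaturated phospholipids, was at 610.5, 549.6 and 766 UQRPKM, with CM lowest and CMT highest as for *ABCA1*. *SCD*, the desaturase that makes oleate, had the opposite order, with 7188, 9909 and 3308 UQRPKM and a log2 ratio of -1.58 in CMT against CM (-1.60 to -1.56).

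Of 16 other apolipoprotein genes matched, 9 could be compared in CM versus IM, 4 past the threshold and higher and 0 lower (median 0.10). All genes had shares of 8.38% and 10.4%. Of the 4, *APOC2* and *APOA5* had only 2 and 13 reads in IM. *APOM* had an interval that held 0, at 0.74 (-0.19 to 1.70). The other was *LOC100157318* (*APOD*), at 0.60 (0.49 to 0.71) from 1120 reads in IM and 1618 in CM. *APOC2* was nearly confined to CM, as were the hepatocyte markers. In CMT versus CM 2 of 10 were higher and 4 lower (median -0.13), and in CMT versus IM 2 of 8 were higher and 0 lower (median 0.29). All genes had shares of 9.53% and 9.97% in the former and 8.81% and 11.9% in the latter. *APOA1*, the main protein of HDL and acceptor for ABCA1, was at 2539, 2339 and 1714 UQRPKM in IM, CM and CMT. *LOC100157318* (*APOD*), a lipocalin carried on HDL, was at 338, 513 and 984 UQRPKM, a log2 ratio of 0.94 in CMT against CM (0.85 to 1.03). *CLU*, for clusterin, had the order of *ABCA1*, with 1894, 1514 and 2366 UQRPKM. *APOC3* had 0, 1418 and 2 reads, so that only CM held it at more than a few reads, as with the hepatocyte markers, a list to which it also belongs.

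Of 16 other lipoprotein enzymes and receptors matched, 14 were compared in CM versus IM, 3 past the threshold and higher and 2 lower (median 0.10). In CMT versus CM 0 of 15 were higher and 3 lower (median -0.15), and in CMT versus IM 1 of 14 was higher and 2 lower (median -0.04). The shares of all genes, higher and lower, were 8.38% and 10.4%, 9.53% and 9.97%, and 8.81% and 11.9% in these comparisons in turn. *ANGPTL4*, an inhibitor of lipoprotein lipase, was at 5109, 3239 and 3853 UQRPKM in IM, CM and CMT, a log2 ratio of -0.66 in CM against IM (-0.70 to -0.62).

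Of 28 genes of intracellular cholesterol handling matched, 25 were compared in CM versus IM, 2 past the threshold and higher and 0 lower (median 0.08). In CMT versus CM 0 of 25 were higher and 1 lower (median -0.12), and in CMT versus IM 1 of 26 was higher and 1 lower (median 0.03). The shares of all genes, higher and lower, were 8.38% and 10.4%, 9.53% and 9.97%, and 8.81% and 11.9% in these comparisons in turn. *STARD4*, a sterol carrier, gave the extreme ratios of the list, 2.29 (0.45 to 4.73) and -2.85 (-6.03 to -0.73), but from 3, 14 and 2 reads. *GRAMD1A* and *GRAMD1B* bring plasma membrane cholesterol to the endoplasmic reticulum. *GRAMD1A* had a log2 ratio of -0.26 in CM against IM and 0.03 (-0.14 to 0.20) in CMT against CM. *GRAMD1B* had 0.12 (-0.20 to 0.44) and 0.40 in the same comparisons.

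Of 22 sterol synthesis genes matched, 21 were compared, 0 past the threshold and higher and 1 lower in CM versus IM (median -0.19), 1 higher and 0 lower in CMT versus CM (median 0.14), and 0 higher and 1 lower in CMT versus IM (median -0.11). The shares of all genes, higher and lower, were 8.38% and 10.4%, 9.53% and 9.97%, and 8.81% and 11.9% in these comparisons in turn. *IDI1*, an isomerase early in the pathway, was the gene past the threshold in the first 2 comparisons, at -1.25 (-2.13 to -0.44) and 1.18 (0.35 to 2.07). *MSMO1*, a demethylase late in the pathway, had the highest ratio of CM to IM, 0.38 (0.15 to 0.62), and *EBP*, a sterol isomerase, the lowest of CMT to CM, -0.47 (-0.65 to -0.30).

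**Figure D4:**
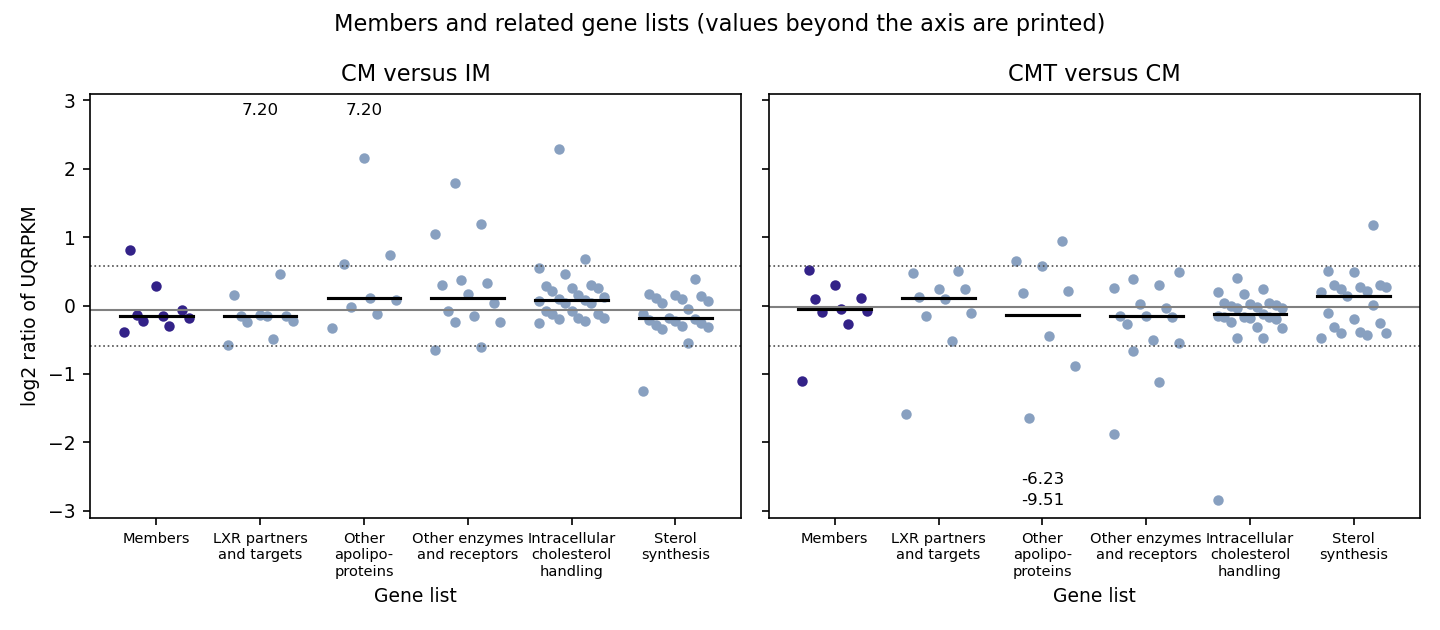
Log2 ratio of UQRPKM for each member (dark) and each gene of 5 related lists (light), for CM over IM at left and CMT over CM at right, with black bars at list medians, a grey line at the median of all mRNA genes, dotted lines at 1.5-fold and values beyond the axis printed. The medians lie within 0.2 of 0 in every list, and single genes such as *APOE* (0.81 and -1.11) stand apart from them.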

How the data were processed

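VAT RNA of IM, CM and CMT pigs was sequenced as 1 pooled library per group, named by its title. Reads were filtered and mapped to Sscrofa 10.2 with MapSplice, and the authors deposited RPKM values divided by a library's upper quartile of gene counts (UQRPKM). The counting tool, annotation and handling of shared reads are not given in the sources used here, so reads shared with related genes could move a value.

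Reads were recovered as the whole numbers behind the UQRPKM values at the shortest fitting gene length, up to 120000 bases. The upper quartiles used were 149, 142 and 146 for IM, CM and CMT, the smallest whole numbers tried whose ratios matched those of the values. Whole reads were found for all 20838 genes above 0, within a relative error of 7.65e-09. Where the true length is a multiple of the one used, reads are too few and intervals too wide. The recovery was tested on simulated data. Total mRNA reads were 14844063, 13582288 and 13449107.

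Ratios were taken without a pseudocount over mRNA genes where neither library was below 1 UQRPKM. Intervals were 95% exact Clopper-Pearson intervals for the share of reads. Reads of amplified libraries are not independent molecules, so intervals cover counting error only, and no test between groups was made. Python 3.11.15, numpy 2.4.6, pandas 2.3.3, scipy 1.17.1 and matplotlib 3.10.9 were used. Other scalings, pseudocounts, filters, folds and confidence levels were tried.

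The members and lists were chosen with earlier results of these data known. The rule for named genes took every member, the highest and lowest ratio of each list in CM versus IM and CMT versus CM among genes with at least 10 reads, defining markers, and the 5 genes most like the member that varied most. *HNRNPC*, *SREBF2*, *LPCAT3*, *APOA1*, *PON2*, *PON3*, *LIPA*, *MCOLN1*, *LAMP2*, *FASN*, *PLIN2*, *HSD3B1*, the neighbours of *APOE* and the markers listed at 0 were named after their values were seen. *APOA5*, *APOM* and *C1QC* were also named outside the rule. Some genes that the rule names are not reported here. Promoter sequences were not analysed here.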

Additional observations from a re-analysis of the deposited data

How the results depend on the processing

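At 2-fold in place of 1.5-fold, 0 members were past the threshold for CM over IM and 0 for CMT over IM, against 1 each, and with a pseudocount of 1 UQRPKM 0 were past it in CMT versus IM. Scaling by total mRNA reads left 4 members with an interval that excluded 0 in CM versus IM, against 7, and moved the ratios of all genes by 0.06, 0.05 and 0.11 log2 units for CM over IM, CMT over CM and CMT over IM. Over 162 log2 ratios of members under 6 scalings and pseudocounts, 158 kept their sign and 134 stayed inside the counting interval, the largest shift being 0.11. The 4 that turned were *NR1H3* in CM versus IM, *NR1H2* in CMT versus CM under 2 scalings, and *PLTP* in CMT versus IM, each with an interval that held 0. Scaling by total reads without hepatocyte and muscle markers was added after the data were seen. By reads without division by length the libraries no longer shared 1 order: *ABCA1* moved from place 7 to 6 in IM and CM and to 4 in CMT, where *NR1H3* and *NR1H2* moved to 5 and 6, and in all libraries *SCARB1* and *NPC2* changed places, *PLTP* moved from 6 to 8 and *NPC1* from 8 to 7. The order by reads rests on the recovered reads, which are too few where the true length is a multiple of the one used. No paired analysis was possible because each group had 1 library, and none could be left out.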

Other observations

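The paraoxonases, HDL-bound or membrane-bound enzymes that hydrolyse lactones and oxidised lipids, differed from one another. *PON1* was at 38.0, 131.7 and 35.9 UQRPKM in IM, CM and CMT, with log2 ratios of 1.79 in CM against IM (95% interval 1.27 to 2.34) and -1.88 in CMT against CM (-2.44 to -1.34). *PON2* was at 499, 1135 and 521 UQRPKM, in CM 2.27-fold above IM (log2 interval 1.06 to 1.31) and 2.18-fold above CMT, so both were highest in CM like *APOE*. *PON3* was at 684, 855 and 773 UQRPKM, below the 1.5-fold threshold in each comparison. The hepatocyte markers also stood out in CM, and their part in these values was not tested.

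Other lysosomal genes did not share 1 order with *NPC1* and *NPC2*. *MCOLN1*, for a lysosomal calcium channel, was at 203, 178 and 129 UQRPKM in IM, CM and CMT, the same order as *NPC1*, with a log2 ratio of -0.66 in CMT against IM (-0.84 to -0.47). *LIPA*, for the acid lipase that frees cholesterol from its esters, was at 1888, 2250.2 and 1993 UQRPKM, and *LAMP2*, for a lysosomal membrane protein, at 405, 384 and 452 UQRPKM.

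Among lipogenic genes of the LXR list, *FASN*, for fatty acid synthase, was at 10283, 9236 and 8276 UQRPKM in IM, CM and CMT. *PLIN2*, for a lipid droplet coat protein, was at 243, 173 and 121 UQRPKM, with a log2 ratio of -0.48 in CM against IM (-0.66 to -0.31) and -0.51 in CMT against CM (-0.72 to -0.31). Both had their lowest value in CMT, as *SCD* did. Of 8 adipocyte markers compared, 7 were also lower in CMT than in CM, and the 20 skeletal muscle markers summed to 162 UQRPKM in CM and 8160 in CMT. Their part in these values was not tested.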
